A study of Mus musculus with 6 samples.

Results

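The interferon response and antigen presentation genes of aged mouse muscle were described here as 40 genes chosen by symbol. Of these, 39 had a row among the 23238 distinct symbols of the count tables, and 36 had enough counts to be tested. The list holds 8 transcription factors, 6 interferon-inducible GTPases, 6 genes of MHC class I and peptide loading, 4 genes of MHC class II, 14 antiviral effectors and sensors, and Isg15 with its protease Usp18. Rnf213, the remaining symbol, was not analysed here. The list was chosen with earlier results of these data known. RNA came from the gastrocnemius, a calf muscle, of wild-type C57/BL6J mice that were 26 months old. Farnesol-fed mice received 350 mg/kg of this sesquiterpene alcohol by mouth over 30 days (3 libraries). Vehicle-fed mice received saline with 5% DMSO over the same time (3 libraries). The labels call the libraries biological replicates without tying each to a mouse, and the p-values speak only of the spread among them. Libraries held 9895700 to 12707751 counts, and levels are given as CPM, the share of a library's counts on sizes scaled by TMM (trimmed mean of M-values).

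Type I interferons are secreted by cells that sense foreign or displaced nucleic acid, and interferon gamma by activated T and NK cells. Type I interferons act through Janus kinases to form the complex ISGF3, which holds Stat2 and Irf9 and binds the interferon-stimulated response element (ISRE). Interferon gamma acts mainly through the gamma-activated site (GAS). The induced genes block viral replication, attack microbes inside vacuoles, and load peptides onto MHC class I and class II molecules for T cells. In resting muscle, fibres carry little MHC, and much of the class II transcript is held by macrophages and other antigen-presenting cells.

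No member was called at an adjusted p under 0.05 (edgeR quasi-likelihood test), nor was any other of the 11674 genes tested (0% higher, 0% lower; smallest adjusted p 0.563). Every tested member had an adjusted p of 0.999989. In bulk RNA fewer cells of a type and less RNA per cell cannot be told apart, which holds for every value here. The point estimates split into 16 above and 20 below 0, and the median log2 fold change of the 36 tested members was −0.07, beside −0.01 over all tested genes. An unadjusted p under 0.05 was reached by 3 members, Iigp1, Irgm2 and Irf9, all with lower values after farnesol. That is 8.33% of those tested, beside a background of 3.01% over all genes in either direction, 1.75% in the higher direction and 1.26% in the lower. Farnesol libraries did not overlap vehicle libraries in 4 members, the same 3 and Irf2, each lower after farnesol (11.1%, beside 8.82% over all genes in either direction, 4.75% in the higher direction and 4.07% in the lower). On this scale these were 2 transcription factors and 2 GTPases, and none of the 23 tested members of the other roles. The split by role rests on few genes and changed with the scaling. On CPM without TMM factors, an alternative chosen after the data were seen, only Irf9 and Iigp1 of these 4 members stayed separated. Ifih1 was separated in addition (3 members, beside 6.72% of all tested genes in either direction and 2.79% in the lower). Without TMM factors and without the ribosomal RNA precursor Rn45s, Irf2, Irf9 and Iigp1 were separated, and again Ifih1. Of all tested genes 7.5% were separated on that scale in either direction and 3.36% in the lower. Members with a low total could enter the tested set through the group in which they were higher, so these shares describe only the 36. The members were also chosen with earlier results of these data known, so the shares are not independent of the data.

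Precision followed depth. The 17 tested members with a mean of at least 100 counts per library had standard errors (SE) of 0.16 to 0.34 on the log2 scale, and the 19 below it had SE of 0.32 to 0.84. A change as large as 2-fold could therefore go undetected, and not only in members with few counts. Iigp1, with a mean of 108 counts and a fold of 0.426, had an adjusted edgeR p of 0.999989.

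**Figure D1:**
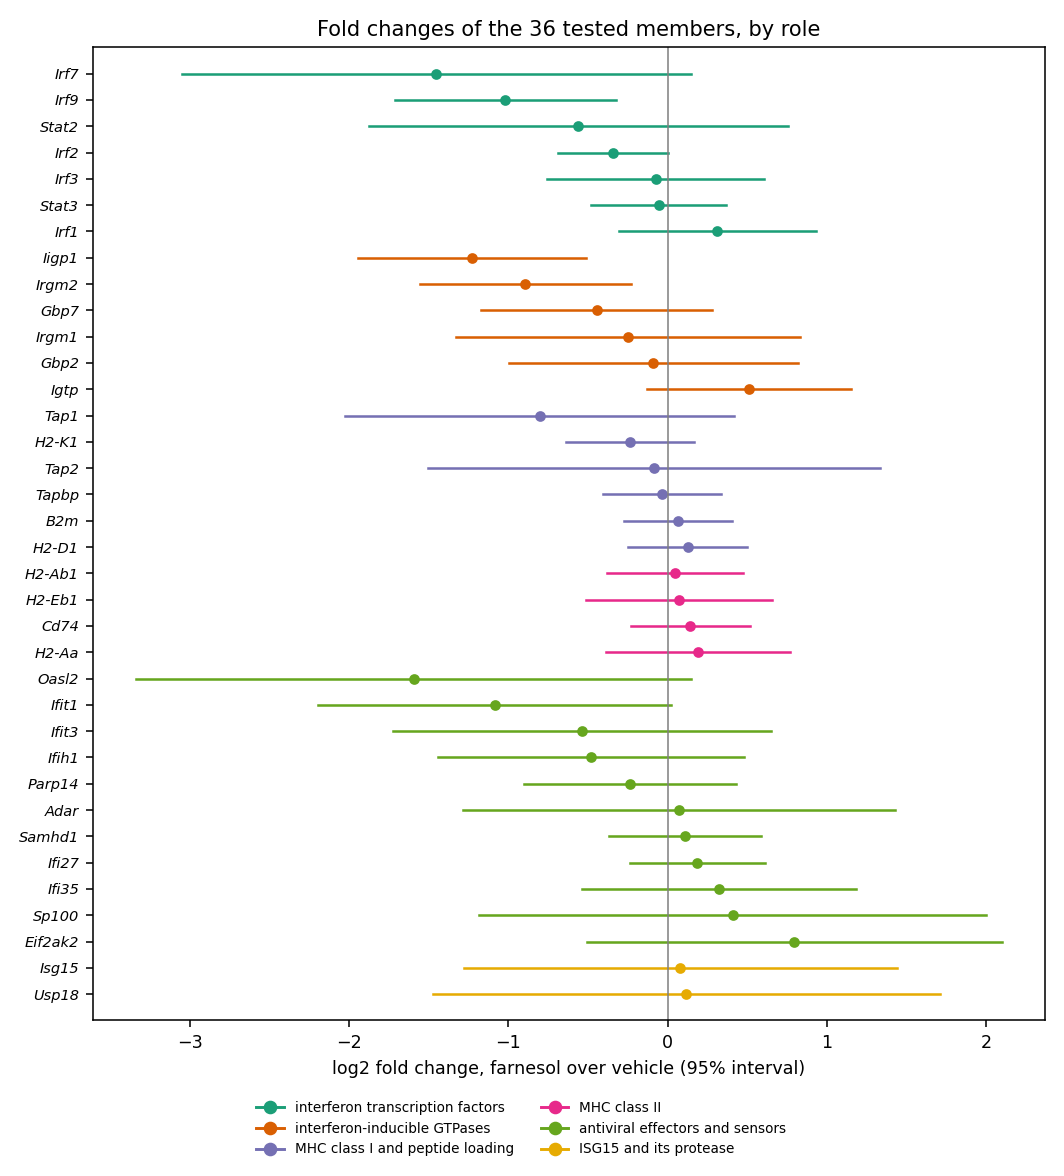
Log2 fold change of farnesol over vehicle for the 36 tested members, grouped by role (colours). Points are edgeR estimates and lines their 95% intervals. The intervals of Iigp1, Irgm2 and Irf9 lie below 0, and the other 33 include 0.

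The promoters of the members were searched for the cores of both elements, since these letters are where the factors on the list are known to act. The windows were RefSeq sequences of GRCm38.p6, the assembly of mm10, from 250 bases before to 50 after a transcript start. They were found for 32 members in 38 windows. The ISRE core was written GAAANNGAA and searched on both strands. The GAS core was written TTCNNNGAA, which reads alike on both strands, and matches of the cores may overlap. An ISRE core stood in 15 of the 38 windows, where 8.56% of all 32851 windows hold one. A GAS core stood in 10 of the 38, where 8.30% of all windows hold one. Both stood in 7 of the 38, where 1.07% of all windows hold both. A match is a description and not a binding site. The windows of Irf9 held neither.

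For each role, the promoter given is that of the tested member with the smallest unadjusted p among those with a match. No class II window held one, and Igtp was added beside its neighbour Irgm2 after its values were seen. The windows are chr8:46739495-46739794 (plus strand, Irf2), chr11:58214727-58215026 (plus, Irgm2), chr11:58199306-58199605 (plus, Igtp), chr2:122147437-122147736 (plus, B2m), chr19:34640639-34640938 (plus, Ifit1) and chr4:156200769-156201068 (minus, Isg15), all in GRCm38.p6 and all written 5′ to 3′ along the gene. Capitals mark the ISRE and GAS cores on either strand.
Irf2: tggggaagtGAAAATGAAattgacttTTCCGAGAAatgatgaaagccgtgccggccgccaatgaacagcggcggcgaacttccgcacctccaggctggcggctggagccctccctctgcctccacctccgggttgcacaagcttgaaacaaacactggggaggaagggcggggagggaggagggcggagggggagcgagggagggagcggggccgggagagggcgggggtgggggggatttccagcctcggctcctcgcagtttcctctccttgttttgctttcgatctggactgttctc
Irgm2: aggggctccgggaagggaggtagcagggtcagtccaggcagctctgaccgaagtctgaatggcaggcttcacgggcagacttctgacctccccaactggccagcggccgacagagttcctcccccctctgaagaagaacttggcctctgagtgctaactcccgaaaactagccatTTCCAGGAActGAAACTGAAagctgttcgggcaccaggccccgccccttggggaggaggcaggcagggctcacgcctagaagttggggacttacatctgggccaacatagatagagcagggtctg
Igtp: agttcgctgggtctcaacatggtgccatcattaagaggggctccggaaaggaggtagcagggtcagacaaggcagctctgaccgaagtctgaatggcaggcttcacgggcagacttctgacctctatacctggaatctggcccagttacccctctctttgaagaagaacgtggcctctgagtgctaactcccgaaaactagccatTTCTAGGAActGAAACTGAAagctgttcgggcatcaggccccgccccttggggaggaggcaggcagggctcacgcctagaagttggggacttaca
B2m: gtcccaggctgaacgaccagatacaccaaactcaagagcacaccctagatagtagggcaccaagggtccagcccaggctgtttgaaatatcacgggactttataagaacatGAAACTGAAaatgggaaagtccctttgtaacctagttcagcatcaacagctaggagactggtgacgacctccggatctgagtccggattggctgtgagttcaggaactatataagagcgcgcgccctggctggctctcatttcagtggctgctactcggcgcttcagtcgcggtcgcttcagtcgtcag
Ifit1: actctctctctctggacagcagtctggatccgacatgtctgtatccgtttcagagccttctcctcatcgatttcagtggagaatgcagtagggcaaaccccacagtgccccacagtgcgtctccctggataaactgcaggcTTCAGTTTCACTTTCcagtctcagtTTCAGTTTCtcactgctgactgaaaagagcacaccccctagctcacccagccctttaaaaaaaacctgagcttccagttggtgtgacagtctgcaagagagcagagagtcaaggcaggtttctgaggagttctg
Isg15: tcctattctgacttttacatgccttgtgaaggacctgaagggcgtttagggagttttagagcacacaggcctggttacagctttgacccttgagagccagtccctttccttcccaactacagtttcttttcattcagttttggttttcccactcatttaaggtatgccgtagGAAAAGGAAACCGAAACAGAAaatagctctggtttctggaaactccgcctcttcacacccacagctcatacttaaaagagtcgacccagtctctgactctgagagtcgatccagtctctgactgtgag

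Irgm2 and Igtp carried the same arrangement, a GAS core, 2 further bases and then an ISRE core, and their windows were 68.1% identical when aligned on it without gaps. Ifit1 and Isg15 each held 3 ISRE cores, of which some overlap. In Irf2 both cores lay more than 200 bases before the start.

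**Figure D2:**
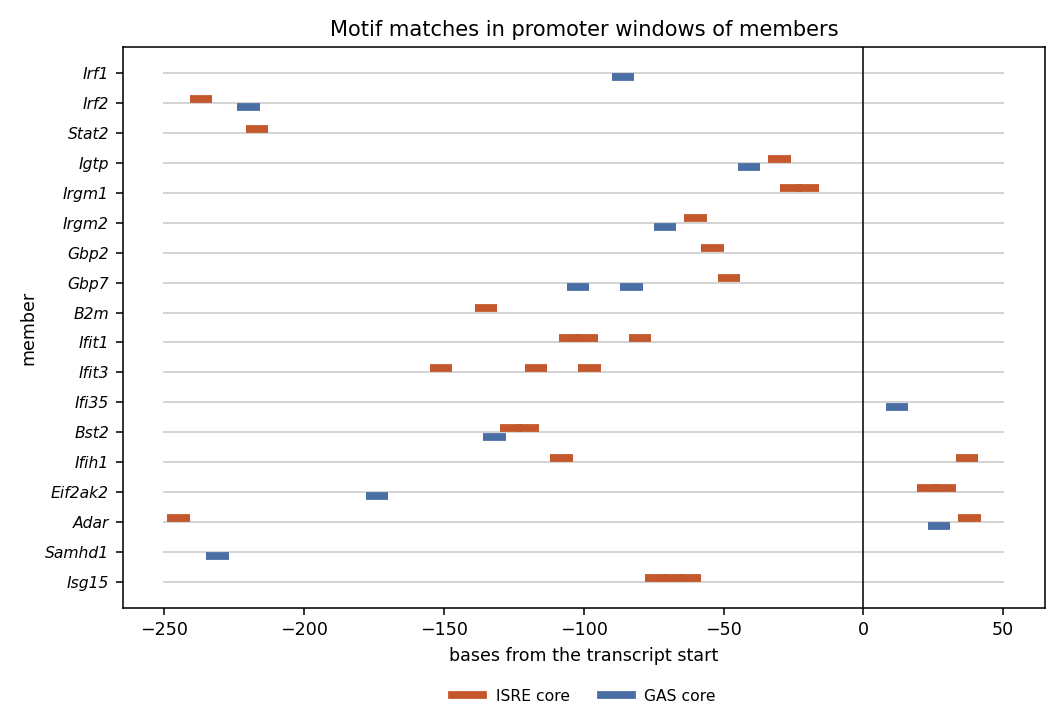
Positions of ISRE cores (orange) and GAS cores (blue) relative to the transcript start in the windows of the 18 members that hold at least 1 match. Grey lines span the window from 250 bases before the start to 50 after it, and Irgm2 and Igtp show both cores in the same order close to the start.

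Among the transcription factors, Irf9 had the smallest p. Irf9, the DNA-binding subunit of ISGF3 (chromosome 14, 55603985 to 55610030), had 3.44, 4.60 and 4.85 CPM in farnesol libraries, against 8.92, 7.89 and 9.32 CPM in vehicle libraries. Every farnesol value was below every vehicle value, and both groups were tight. The fold was 0.493 (95% interval 0.305 to 0.797; log2 fold change −1.02, SE 0.33), with an unadjusted edgeR p of 0.00577. Leaving out single libraries gave log2 fold changes of −1.11 to −0.88. Of its exon bases 2.28% are shared with Rnf31 on the same strand, so some of its counts may belong to that gene. How many of its counts fall in that stretch was not measured, and the share of exon bases does not give it.

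Irf2, which competes with Irf1 for the same DNA sites and mostly represses (chromosome 8, 46739745 to 46847458), had 42.1, 40.5 and 38.1 CPM in farnesol libraries, against 51.8, 49.99 and 51.4 CPM in vehicle libraries. The groups did not overlap on this scale. Without TMM factors they did: the values were 46.7, 38.1 and 37.3 CPM in farnesol libraries, against 48.8, 45.2 and 58.6 CPM in vehicle libraries. Its fold was 0.788 (0.620 to 1.002; log2 fold change −0.34, SE 0.17), with an unadjusted edgeR p of 0.0522. Its activating counterpart Irf1, induced by interferon gamma, had 14.5, 8.96 and 10.6 CPM in farnesol libraries, against 7.96, 12.2 and 7.29 CPM in vehicle libraries. These overlapped, and the fold was 1.24 (0.809 to 1.90).

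The partner of Irf9 did not separate the groups. Stat2 had 1.498, 0.921 and 2.37 CPM in farnesol libraries, against 2.59, 3.04 and 1.44 CPM in vehicle libraries, from a mean of 20.8 counts, and its fold was 0.678 (0.272 to 1.69). Whether the fold of Irf9 differs from that of Stat2 was not tested.

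Stat3, which carries signals of the interleukin-6 family, had 88.8, 69.4 and 66.1 CPM in farnesol libraries, against 62.8, 62.0 and 109 CPM in vehicle libraries. Vehicle replicate 3 was the highest, and the fold of 0.961 had an interval of 0.715 to 1.29. Irf7, an amplifier of type I interferon production, had 0.617, 0.670 and 1.24 CPM in farnesol libraries, against 3.93, 0.506 and 2.46 CPM in vehicle libraries. Vehicle replicate 2 was the lowest of all, so the groups overlapped. Its log2 fold change of −1.45 had an SE of 0.77 from a mean of 17 counts, and was −0.83 without vehicle replicate 1. Irf3, which starts interferon production after sensing, had a fold of 0.948 (0.592 to 1.52). Nlrc5, the transactivator of MHC class I genes, was too low to test, with 4, 8 and 1 counts in farnesol libraries and 6, 0 and 8 counts in vehicle libraries.

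**Figure D3:**
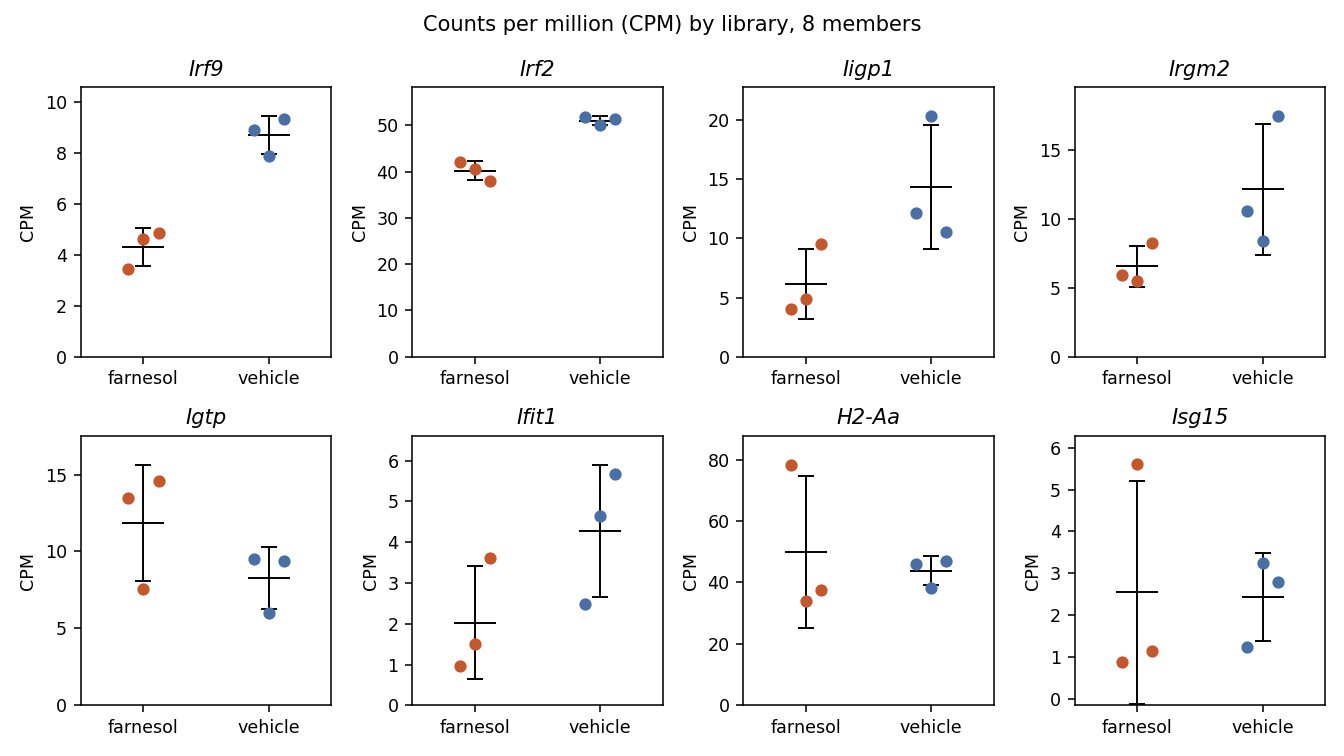
CPM per library for 8 members, with farnesol left of vehicle. Points are libraries and black bars the mean and SD of 3. On this TMM scale Irf9, Irf2, Iigp1 and Irgm2 show separated groups (Irf2 and Irgm2 overlap without TMM factors), while Igtp, Ifit1, H2-Aa and Isg15 overlap, and 1 farnesol library is far above the rest in H2-Aa (78.4 CPM) and another in Isg15 (5.61 CPM).

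The interferon-inducible GTPases coat or remodel vacuoles that hold microbes, and the Irgm proteins also restrain the other GTPases. Iigp1, an effector GTPase, had 4.05, 4.85 and 9.49 CPM in farnesol libraries, against 12.2, 20.3 and 10.5 CPM in vehicle libraries. Farnesol replicate 3 lay close below the lowest vehicle library and the other farnesol libraries far below it. The fold was 0.426 (0.260 to 0.699; log2 fold change −1.23, SE 0.34), with an unadjusted edgeR p of 0.00176. Without the filter on low counts its adjusted edgeR p was 0.0763, and it did not go below 0.05 under any alternative run. Leaving out single libraries gave −1.68 to −0.89 on the log2 scale.

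Irgm2, a regulator of these GTPases (chromosome 11, 58214977 to 58222783), had 5.91, 5.52 and 8.26 CPM in farnesol libraries, against 10.5, 8.399 and 17.5 CPM in vehicle libraries. The groups did not overlap, by a narrow margin between farnesol replicate 3 and vehicle replicate 2. Without TMM factors these libraries crossed, at 8.08 CPM in farnesol replicate 3 and 7.59 CPM in vehicle replicate 2. The fold was 0.538 (0.340 to 0.853; log2 fold change −0.89, SE 0.32), with an unadjusted edgeR p of 0.0106. Without vehicle replicate 3 its log2 fold change was −0.53 and its unadjusted p 0.144.

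Igtp, also called Irgm3, lies just upstream of Irgm2 (58199556 to 58207592). It had 13.5, 7.53 and 14.5 CPM in farnesol libraries, against 9.49, 5.97 and 9.41 CPM in vehicle libraries. The groups overlapped, with a fold of 1.42 (0.913 to 2.22). The number of Irgm2 counts for each Igtp count was 0.438, 0.733 and 0.567 in farnesol libraries, against 1.11, 1.41 and 1.86 in vehicle libraries, so all farnesol libraries held more Igtp and all vehicle libraries more Irgm2. This pair was chosen after its values were seen and is given without a test. GENCODE vM21 has the genes share exon bases on the same strand, 8.01% of Igtp and 4.39% of Irgm2, although the RefSeq ranges given here do not overlap. The annotation used for counting is not given, so counts in that stretch may not be assignable to either gene.

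The other GTPases gave wide intervals. Irgm1 had 2.47, 1.76 and 2.79 CPM in farnesol libraries, against 3.55, 2.23 and 2.54 CPM in vehicle libraries, a fold of 0.842 (0.398 to 1.78). Gbp2, a guanylate-binding protein, had 4.05, 2.01 and 7.22 CPM in farnesol libraries, against 4.31, 4.65 and 5.08 CPM in vehicle libraries. The farnesol libraries of Gbp2 enclosed the vehicle ones, and its fold was 0.939 (0.5001 to 1.76). Gbp7 had a fold of 0.734 (0.444 to 1.21), with vehicle libraries between 10.2 and 31.3 CPM. Gm43802 overlaps 11.3% of the exon bases of Gbp7 on the same strand.

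Intervals were narrower for the abundantly counted genes of MHC class I than for members with few counts, though changes within those intervals remain possible. B2m, the light chain shared by class I molecules, had 254, 199 and 218 CPM in farnesol libraries, against 184, 264 and 193 CPM in vehicle libraries. The groups overlapped fully, and the fold of 1.05 rested on 2366 counts per library on average and had an interval of 0.827 to 1.32. H2-K1, a class I heavy chain, had 44.0, 34.6 and 41.9 CPM in farnesol libraries, against 39.3, 41.4 and 61.3 CPM in vehicle libraries, a fold of 0.847 (0.641 to 1.121). The other heavy chain, H2-D1, had 77.0, 67.1 and 67.8 CPM in farnesol libraries, against 48.9, 64.7 and 80.8 CPM in vehicle libraries, a fold of 1.09 (0.842 to 1.41). Both overlapped between groups. In H2-D1, 9.53% of the 50-base stretches of the transcript end also occur in other genes, so its level is less certain than that of H2-K1.

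Peptide loading varied more between libraries. Tap1, a subunit of the peptide transporter, had 2.03, 2.18 and 1.34 CPM in farnesol libraries, against 0.959, 5.06 and 3.73 CPM in vehicle libraries. Vehicle replicate 1 was the lowest library and the other vehicle libraries the highest, and the fold was 0.573 (0.246 to 1.33). Its partner Tap2 followed the same order among vehicle libraries, at 2.91, 4.60 and 3.51 CPM in farnesol libraries, against 0.383, 7.29 and 4.07 CPM in vehicle libraries. Vehicle replicate 1 held only 4 counts of Tap2, and 18.5% of the exon bases of Tap2 are overlapped by genes on the other strand. Tapbp, which bridges the transporter and class I molecules, had a fold of 0.974 (0.753 to 1.26). Of its exon bases 24.9% are overlapped on the other strand and 4.11% on the same strand. Vehicle replicate 1 was the lowest library for 4 of these 6 genes.

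All 4 MHC class II genes were highest in farnesol replicate 1. H2-Aa, the alpha chain of the I-A molecule, had 78.4, 33.8 and 37.7 CPM in farnesol libraries, against 46.1, 38.4 and 46.9 CPM in vehicle libraries. H2-Ab1, its beta chain, had 36.2, 25.3 and 25.6 CPM in farnesol libraries, against 27.6, 25.4 and 31.4 CPM in vehicle libraries. H2-Eb1, the beta chain of the I-E molecule, had 38.7, 21.6 and 14.4 CPM in farnesol libraries, against 27.0, 22.1 and 22.3 CPM in vehicle libraries. Cd74, the invariant chain that guards the peptide groove, had 55.2, 42.5 and 44.9 CPM in farnesol libraries, against 48.7, 37.2 and 43.4 CPM in vehicle libraries. In each gene the other farnesol libraries lay within or below the vehicle range. The folds ran from 1.03 for H2-Ab1 (0.769 to 1.39) to 1.14 for H2-Aa (0.766 to 1.70). Without farnesol replicate 1 the log2 fold changes were −0.29 for H2-Aa, −0.15 for H2-Ab1, −0.40 for H2-Eb1 and 0.02 for Cd74.

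Ciita, the transactivator of class II genes, is outside the list and was looked up after these values were seen. It held 0, 20 and 2 counts in farnesol libraries and 0, 4 and 2 counts in vehicle libraries, too few to test. In farnesol replicate 1, with the highest class II levels, its count of 0 allows up to 0.264 CPM, a limit that covers counting error only. Whether Ciita bears on the class II values was not tested.

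**Figure D4:**
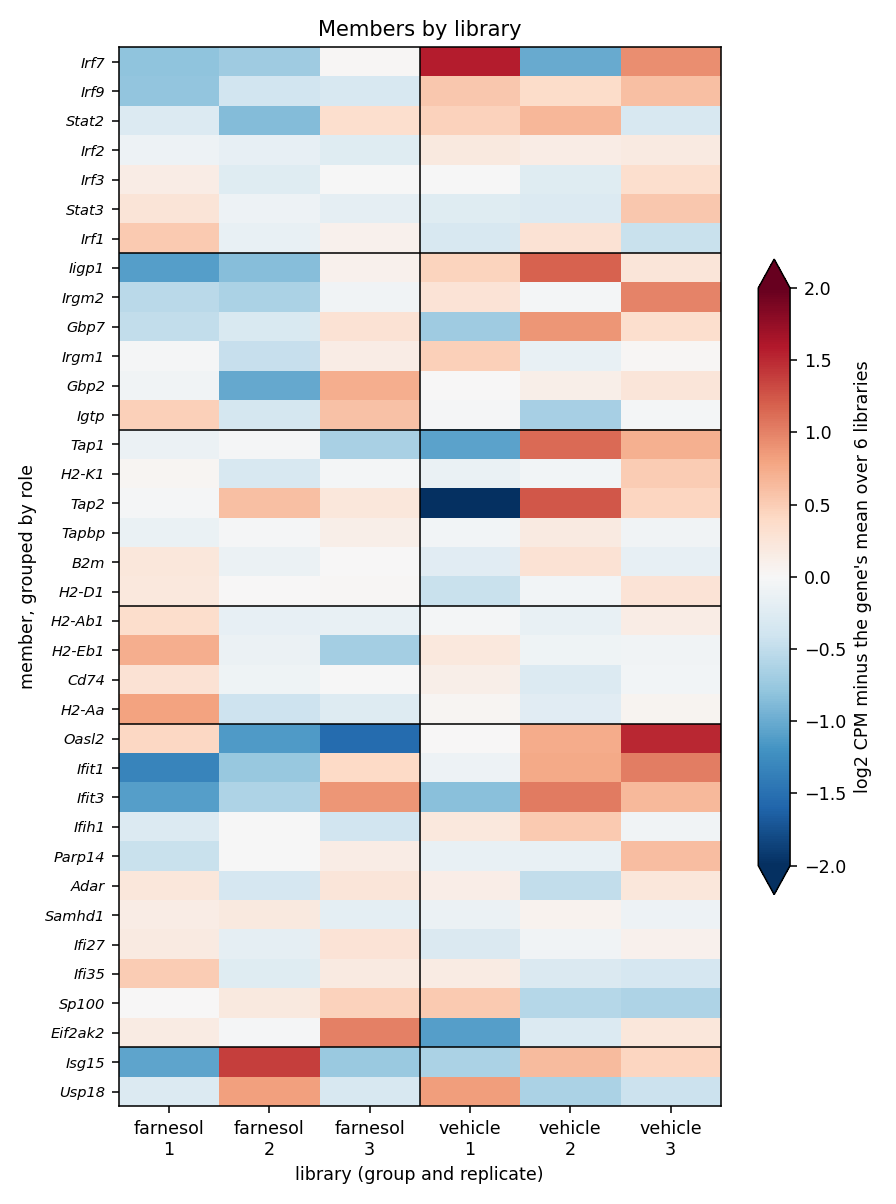
Log2 CPM of each tested member minus its mean over the 6 libraries, with farnesol libraries left of vehicle libraries and black lines between roles. Colours run from −2 (blue) to 2 (red), and stronger values take the end colour. The MHC class II block is highest in farnesol replicate 1, and Tap1 and Tap2 are lowest in vehicle replicate 1.

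The antiviral effectors and sensors gave no common direction: of 11 tested, 6 had point estimates above 0 and 5 below, with a median log2 fold change of 0.07. Ifit1, which binds viral RNA with an unmethylated cap, had 0.970, 1.51 and 3.61 CPM in farnesol libraries, against 2.49, 4.65 and 5.68 CPM in vehicle libraries. Farnesol replicate 3 exceeded vehicle replicate 1, so the groups overlapped. The fold was 0.470 (0.218 to 1.01), with an unadjusted edgeR p of 0.0542. Ifit3, of the same family, had 1.32, 1.93 and 5.78 CPM in farnesol libraries, against 1.63, 6.48 and 4.92 CPM in vehicle libraries, a fold of 0.687 (0.302 to 1.56). For both genes farnesol replicates 1 and 2 and vehicle replicate 1 were the 3 lowest libraries. Of the end of Ifit3, 14.9% also occurs in its copy Ifit3b. Oasl2, of the oligoadenylate synthetase-like proteins, had 15, 4 and 2 counts in farnesol libraries and 10, 17 and 36 counts in vehicle libraries, and its log2 fold change of −1.60 had an SE of 0.84. Single libraries weighed heavily in these 3 genes. Without farnesol replicate 3 the log2 fold change was −1.78 for Ifit1 and −1.41 for Ifit3, against −1.09 and −0.54 with it. Without farnesol replicate 1 that of Oasl2 was −2.76.

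Among the sensors of viral RNA, Ifih1 (MDA5) had a fold of 0.716 (0.367 to 1.40). Eif2ak2, the kinase PKR that stops translation, had 2.12, 1.84 and 3.92 CPM in farnesol libraries, against 0.767, 1.52 and 2.20 CPM in vehicle libraries. The groups overlapped, and the fold of 1.74 had an interval of 0.704 to 4.28. Adar, which edits adenosine in RNA and so keeps the sensors from reading the cell's own RNA, had 1.94, 1.26 and 1.96 CPM in farnesol libraries, against 1.82, 1.11 and 1.95 CPM in vehicle libraries, a fold of 1.05 (0.411 to 2.69). Chrnb2 overlaps 16.8% of the exon bases of Adar on the other strand.

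Of the remaining effectors, those with more counts had narrower intervals. Ifi27 had a fold of 1.14 (0.847 to 1.52), and Samhd1, which depletes deoxynucleotides, 1.08 (0.773 to 1.498). Parp14, an ADP-ribosyltransferase, had a fold of 0.849 (0.536 to 1.35), Ifi35 of 1.25 (0.689 to 2.27) and the nuclear body protein Sp100 of 1.33 (0.439 to 3.999). Bst2, the virus tether tetherin, had 8, 9 and 4 counts in farnesol libraries and 12, 5 and 10 counts in vehicle libraries. Xaf1 had 17, 9 and 5 counts in farnesol libraries and 2, 11 and 3 counts in vehicle libraries. Both were too low to test.

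Isg15, a ubiquitin-like protein joined to other proteins after interferon, had 0.881, 5.61 and 1.14 CPM in farnesol libraries, against 1.25, 3.24 and 2.80 CPM in vehicle libraries. Usp18, which removes it and damps the interferon receptor, had 0.970, 2.26 and 0.929 CPM in farnesol libraries, against 2.30, 0.708 and 0.847 CPM in vehicle libraries. Farnesol replicate 2 was the highest farnesol library for both, and the groups overlapped. Without farnesol replicate 2 the log2 fold change of Isg15 was −1.26, against 0.08 with it.

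The rest of the pathway was described by 121 further genes in 5 lists, of which 119 had a row and 80 were tested. None was called at an adjusted p under 0.05 by edgeR (0% over all genes), and point estimates split into 34 above and 46 below 0 with a median of −0.04. An unadjusted p under 0.05 was reached by 1 gene in each direction, 2.5% of the 80 beside 3.01% over all genes. Psmb10, a subunit of the immunoproteasome, had 6.87, 9.12 and 11.2 CPM in farnesol libraries, against 4.22, 5.06 and 7.03 CPM in vehicle libraries. Only farnesol replicate 1 lay below a vehicle library, and the log2 fold change was 0.73 (SE 0.33). Trim30a had 3.17, 5.86 and 3.82 CPM in farnesol libraries, against 6.81, 4.96 and 10.9 CPM in vehicle libraries, a log2 fold change of −0.82 (SE 0.38). The groups did not overlap in 2 genes, Tmem173 and Trafd1, both higher after farnesol, which is 2.5% of the 80 beside 8.82% over all genes. These 5 lists too were chosen with earlier results of these data known.

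Receptors and Janus kinases numbered 2 above and 6 below 0 of 8 tested, with a median of −0.05. Ifngr2, a chain of the interferon gamma receptor, had a log2 fold change of 0.36 (SE 0.20), and the kinase Tyk2 of −0.46 (SE 0.37). The receptor chains Il10rb (−0.49, SE 0.58) and Ifnar1 (−0.17, SE 0.40) were less precise. Of 14 other STAT and IRF factors and feedback inhibitors, 6 were above and 8 below 0. Among them the STAT inhibitor Pias1 had a log2 fold change of −0.44 (SE 0.30) and the feedback inhibitor Socs3 of 0.38 (SE 0.41). Rfxap and Rfxank, subunits of the complex that binds MHC class II promoters, had −0.32 (SE 0.27) and −0.37 (SE 0.40).

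Of 11 genes of nucleic acid sensing, 5 were above and 6 below 0. Their log2 fold changes were −0.51 for Ifi204 (SE 0.32), 0.50 for the adaptor Myd88 (SE 0.36), −0.60 for the RNA sensor Ddx58 (SE 0.48) and 0.18 for Traf3 (SE 0.26). Of 35 other interferon-induced genes, 15 were above and 20 below 0. Parp12 (−0.97, SE 0.59; −1.67 without farnesol replicate 3) and the nuclear body gene Pml (0.57, SE 0.38) followed Psmb10 and Trim30a by p. Of 12 other antigen presentation genes, 6 were above and 6 below 0, with a median of 0.00. These included the peptide trimmer Erap1 (0.36, SE 0.34), the lysosomal protease Lgmn (0.30, SE 0.33), the chaperone Pdia3 (−0.18, SE 0.22) and H2-T22 (0.19, SE 0.29).

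The cells that could carry these transcripts were read from marker lists, also chosen with earlier results of these data known. Skeletal muscle fibre markers, 10 of 10 detected, summed to 212838 to 251015 CPM in farnesol libraries and 182305 to 269557 CPM in vehicle libraries. Of 18 macrophage markers 17 were tested, with 1 above and 16 below 0 and a median log2 fold change of −0.30. They summed to 241, 194 and 198 CPM in farnesol libraries, against 246, 178 and 338 CPM in vehicle libraries. Vehicle replicate 3 held the highest sum and was also the highest library for Irf9, Irgm2 and Ifit1, but not for Irf2 or Iigp1. The same library held the lowest sum of fibre markers (182305 CPM) and of fibro-adipogenic progenitor markers (785 CPM). It held the highest sum of pan-leukocyte markers (26.9 CPM) and of endothelial markers (158 CPM). An unadjusted p under 0.05 was reached by 2 of the 17 macrophage markers, Adgre1 and Lyve1, both with lower values after farnesol (11.8%, beside 3.01% over all genes in either direction and 1.26% lower). Adgre1, the F4/80 antigen, had 2.20, 4.35 and 2.06 CPM in farnesol libraries, against 6.04, 5.26 and 6.53 CPM in vehicle libraries. The part of macrophages in the values of the members was not tested. Farnesol replicate 1, highest for MHC class II, had the highest macrophage sum of the farnesol libraries, below those of vehicle replicates 1 and 3.

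Lymphocyte markers were near 0. T cell markers summed to 2.12, 0.502 and 0.103 CPM in farnesol libraries, against 1.05, 1.11 and 1.61 CPM in vehicle libraries. B cell markers summed to at most 0.264 CPM in farnesol libraries and 0.593 CPM in vehicle libraries, and 2 of the 5 with a row were at 0 counts in every library. Dendritic cell markers summed to 1.41, 7.37 and 4.95 CPM in farnesol libraries, against 5.56, 4.45 and 3.90 CPM in vehicle libraries. Only 3 of these 8 markers had enough counts to be tested, and their part in the class II values was not tested. Endothelial markers summed to 148, 140 and 112 CPM in farnesol libraries, against 119, 122 and 158 CPM in vehicle libraries.

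Averaged over the 36 tested members, the log2 deviation from the mean of the 6 libraries was −0.09, −0.21 and 0.01 in farnesol libraries and −0.08, 0.13 and 0.24 in vehicle libraries. Farnesol replicate 3 lay above vehicle replicate 1, so the averages overlapped. Farnesol replicate 1 also differed in the share of Rn45s, 4.97% of its counts against 9.92% to 15.4% in the other 5 libraries. Whether this bears on the class II values was not tested.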

How the data were processed

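The authors deposited 1 table of raw counts by gene symbol for each library, from QuantSeq 3′ mRNA libraries of 500 ng of total RNA, per the labels' protocols. The submitters' processing notes name Bowtie2, bedtools and mm10. Not given in the sources used here are versions, annotation, strand handling and how reads with several matches were treated, so overlapping and copied genes are uncertain. Rows with the same symbol were summed (35 symbols, no member among them).

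Counts were tested with edgeR 4.0.16 (R 4.3.3) after filterByExpr on the groups, with TMM factors (0.905 to 1.14), glmQLFit and glmQLFTest with robust = TRUE, and Benjamini-Hochberg adjustment over all 11674 genes at 0.05. SE was derived from the log2 fold change and its F statistic. The fit was checked on simulated counts. Alternatives were DESeq2 1.42.0, limma 3.58.1 (voom), RLE and upper-quartile factors, no filter, a mean of at least 5 CPM, no Rn45s, a replicate block, a prior count of 0.5 and leaving out each library. Rnf213 was not analysed here. Log2 CPM used a prior count of 2. The members and lists were chosen with earlier results of these data known. Values per library are given for members with an unadjusted p under 0.05 or separated groups and for fixed anchors of each role, and up to 4 genes of smallest p are named per pathway list among those with a mean of at least 2 CPM. Further genes were named after their values were seen. Exon overlaps and shared 50-base stretches of the last 500 transcript bases came from GENCODE vM21.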

Additional observations from a re-analysis of the deposited data

How the results depend on the processing

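No member was called under the 8 refits (RLE or upper-quartile factors, no filter, at least 5 CPM, DESeq2, limma-voom, no Rn45s, replicate block) or with any of the 6 libraries left out. Over all genes edgeR called 13 without the filter on low counts (0 of them members) and between 0 and 3 with 1 library left out (3 without vehicle replicate 2, 0 without any of the others). DESeq2 and limma-voom called 0, with 416 and 368 genes at an unadjusted p under 0.05. The median of the tested members ran from −0.18 to −0.0029 with 1 library left out and was 0.0041 above a mean of 5 CPM, where 20 members were tested. Of the 36 tested members, 22 kept their sign in each of these fits that held them, among them Irf9, Irf2, Iigp1, Irgm2 and Ifit1. Ifit1, with a mean of 3.15 CPM, was not in the fit above a mean of 5 CPM. Under limma-voom and under the replicate block the log2 fold changes of Tap2 were 0.64 and 0.35, of H2-Eb1 −0.025 and −0.033 and of Isg15 −0.26 and −0.27; the cause was not tested. With 1 library left out the ranges that crossed 0 were −0.21 to 0.10 (Irf3), −0.20 to 0.26 (Stat3), −0.63 to 0.26 (Gbp2), −0.038 to 0.24 (B2m), −0.043 to 0.32 (H2-D1), −0.62 to 0.71 (Tap2), −0.11 to 0.047 (Tapbp), −0.29 to 0.41 (H2-Aa), −0.15 to 0.14 (H2-Ab1), −0.40 to 0.34 (H2-Eb1), −0.37 to 0.078 (Parp14), −0.14 to 0.25 (Adar), −1.26 to 0.48 (Isg15), −0.43 to 0.83 (Usp18), −0.69 to 0.10 (Ifnar1) and −0.040 to 0.40 (Traf3).

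With the replicate number as a block edgeR called 0 genes, as without it, and the median of the members was −0.05. Deviations of same-numbered libraries correlated across genes at −0.02 to 0.06, and not every library correlated best with its own number, so the numbers were not taken as pairs. Without TMM factors, chosen after seeing the data, 3 members had separated groups, 2 of them (Irf9 and Iigp1) among the 4 with TMM. Of all tested genes 6.72% were separated on that scale in either direction and 2.79% in the lower. Also without Rn45s there were 4 members, of which 3 were among those with TMM, beside 7.5% of all tested genes in either direction and 3.36% in the lower. With a prior count of 0.5 each library's mean deviation moved by less than the spread between libraries. Depth limits the 19 members under 100 counts most.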

Other observations

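The 2 class I heavy chains were also compared by their proportion. For each H2-D1 count, libraries held 0.571, 0.515 and 0.618 H2-K1 counts after farnesol, against 0.804, 0.640 and 0.759 after vehicle, so every farnesol library lay below every vehicle library. The pair was looked at after the values were seen, the ratio has no test, and neither gene alone separated the groups. How often other pairs of genes separate was not counted, and part of the transcript end of H2-D1 also occurs in other genes.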
